A study of Toxocara canis with 2 samples.

Results

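Transcripts matched to GLD-1, which represses translation in the nematode germline, were examined in adult male and female Toxocara canis, the roundworm of dogs. The subject is 3 unigenes (assembled transcripts), Unigene12894_All, CL964.Contig2_All and CL5901.Contig8_All, named below without the shared suffix. They were picked by identifier from 20 unigenes whose Swiss-Prot best hit was the Caenorhabditis elegans protein gld-1. The series held 70267 unigenes in all. Their levels in these same libraries chose the 3, so those levels are given as a description with no test. Unigene12894 and CL5901.Contig8 are the outermost of the 20 matches toward the male and the female library, and CL964.Contig2 had the highest female level of the 20.

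The study compared 1 whole-body poly-A library of an adult male worm with 1 of an adult female worm, both labelled as strain Rongchang, with no treatment given in the labels. The male library held 18.4 M fragments and the female library 19.8 M. With 1 library per sex no replicate exists, so no test between the sexes was possible and no p-value is given. Intervals below are exact 95% intervals from fragment counts and cover counting error only, not the variation from worm to worm or from one preparation to the next. Sperm markers followed the labels closely. Of 91 unigenes matched to sperm proteins (major sperm protein and the MFP fiber proteins), 90 were higher in the male library, with a summed level of 68025 FPKM against 44.4 FPKM. Of 35 unigenes matched to yolk and eggshell proteins, 21 were higher in the female library, beside 50.5% of all described unigenes, so the count alone says little. Their levels summed to 635 FPKM for the male library and to 90131 FPKM for the female. The size rule defined below was met toward the female by 20 of the 35, beside 8.77% of described unigenes. Toward the male, 5 of the 35 met it, beside 15.9%. The outermost toward the female, Unigene14425, matched Vitellogenin-6 with a Swiss-Prot score of 1003. It had a male level of 0.286 FPKM and a female level of 14049 FPKM. Unigene29259, the outermost toward the male, had a male level of 194 FPKM and 0 female fragments. Its Swiss-Prot match to Vitellogenin-2 was weaker, with a score of 61.2.

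GLD-1 belongs to the STAR family, whose members bind RNA through a KH domain flanked by conserved QUA regions. In C. elegans it binds untranslated regions of maternal messenger RNAs and holds their translation back while germ cells pass through meiotic prophase. Hermaphrodite germ cells that lack it leave meiosis and proliferate, which is why databases describe the protein as a tumor suppressor. Other members of the family are ASD-2 and vertebrate quaking, which act in alternative splicing, HOW (held out wings) of Drosophila, and splicing factor 1, which binds the intron branch point. The roles given here for nematode proteins are known from C. elegans and were not examined in T. canis.

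Unigene12894, of 5568 bases, stood at 243 FPKM (interval 240 to 246) in the male library from 24883 fragments. FPKM scales fragments to unigene length and library total, so levels can be compared between unigenes. Where levels are set against each other, the male level comes first. The female library held 40 fragments of it, or 0.363 FPKM (0.259 to 0.494). It was high in the male and low in the female, though above the 0.0272 FPKM that 3 fragments on this length would read. The male share of the library was 670-fold higher (492 to 938). By FPKM it ranked 471 among male and 46906 among female levels. Of 8589 unigenes with a protein description in the authors' table, 117 (1.36%) were at least as far toward the male on the log2((female FPKM + 1)/(male FPKM + 1)) scale, where its value was -7.49.

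CL964.Contig2, of 1893 bases, stood at 10.1 FPKM (9.07 to 11.2) in the male from 351 fragments and at 70.8 FPKM (68.1 to 73.5) in the female from 2651 fragments. It was readily detected in both libraries and higher in the female. The difference was 7.01-fold (6.27 to 7.86), or 2.69 on the same log2 scale, and 431 of the described unigenes (5.02%) lay at least as far toward the female. It ranked 1199 in the female library, the highest rank there among the 20 matches.

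CL5901.Contig8, of 558 bases, stood at 1.56 FPKM (0.893 to 2.54) in the male from 16 fragments and at 30.3 FPKM (27.1 to 33.7) in the female from 334 fragments. It was low in the male and moderate in the female. The difference was 19.4-fold (11.8 to 34.3), with a log2 value of 3.61, and 221 described unigenes (2.57%) lay at least as far toward the female. The interval is wide because the male count was 16.

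**Figure D1:**
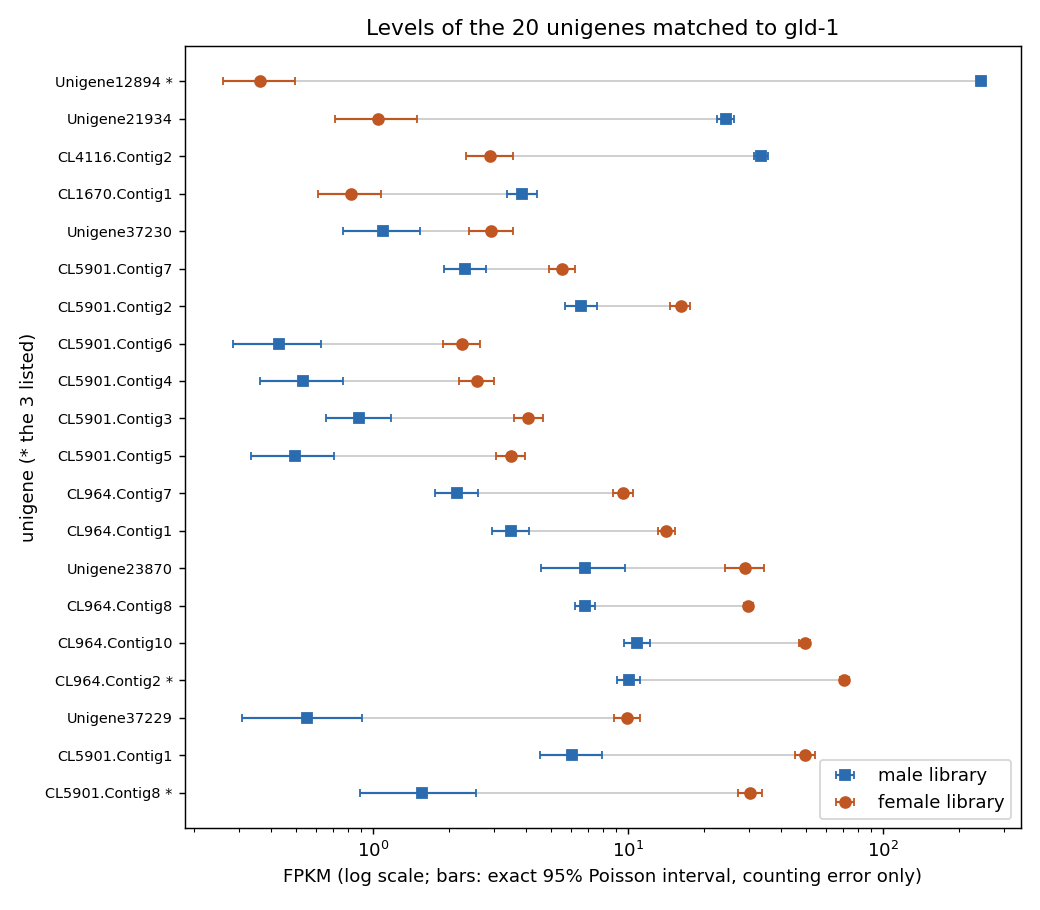
FPKM on a log axis in the male (squares) and the female library (circles) for each of the 20 unigenes matched to gld-1, with exact 95% Poisson intervals and with the 3 listed unigenes starred. The top 4 unigenes were higher in the male library, led by Unigene12894 at 243 against 0.363 FPKM, and the other 16 were higher in the female.

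The database matches of the 3 differed. All 3 had gld-1 as Swiss-Prot hit, with alignment scores of 281 for Unigene12894, 243 for CL964.Contig2 and 96.7 for CL5901.Contig8. None of the 20 carried the name gld-1 in the Nr column. There, Unigene12894 and CL5901.Contig8 matched a tumor suppressor of the filarial worm Loa loa (scores 364.8 and 151), and CL964.Contig2 a tumor suppressor of Brugia malayi (379.4). The KEGG column called all 20 splicing factor 1, so the columns place the same transcripts under different members of one family. Whether a given unigene is the counterpart of GLD-1, of ASD-2 or of another STAR protein cannot be told from these columns.

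Unigene12894 differed from the other 19 in 2 further annotation facts. It was the longest of the 20, whose lengths ran from 232 to 5568 bases with a median of 2080. Its COG hit was the yeast phosphatase YDR436w (score 154) in a group of serine/threonine protein phosphatases. Of the other matches, 10 had the branch point binding splicing factor as COG hit and 9 had no COG hit. The authors' table held 82 other unigenes of that phosphatase group, 79 higher in the male library and 3 higher in the female. Among all described unigenes of that table, 50.5% were higher in the female. The 82 summed to 4223 FPKM in the male and to 59.1 FPKM in the female. Which stretch of Unigene12894 carried its 24883 male fragments is not resolved in a count per unigene, and the part of the phosphatase match in its level was not tested.

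Across all 20 matches to gld-1 both directions occurred. The level was higher in the female library for 16 and in the male library for 4, beside 50.5% higher in the female among all described unigenes of the authors' table. A size rule asked for 5 FPKM or more in the library with more and for a 4-fold difference after adding 1 FPKM to both. This rule was met toward the female by 5 of the 20, beside 8.77% of described unigenes, and toward the male by 3, beside 15.9%. The 3 listed unigenes are among these 8 and were chosen on this contrast, so nothing is read from the counts. The median log2 value of the 20 was 1.51, or 0.90 with 1 unigene per cluster name, beside 0.32 for the described unigenes. Membership in the authors' table itself required a 2-fold difference, so no match with similar levels in the sexes could enter. Contigs of a cluster (CL) share sequence and are not independent. With 1 unigene per cluster name, 9 matches remained, 5 with more in the female and 4 with more in the male. CL964.Contig2 and CL5901.Contig1 stood for their clusters there. Each had the highest female level of its cluster and met the size rule.

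The 3 other matches that were higher in the male library were less abundant than Unigene12894. Unigene21934 had a male level of 24.2 FPKM and a female level of 1.05 FPKM, a 23.0-fold difference (16.1 to 34.1). CL4116.Contig2 stood at 33.3 against 2.89 FPKM, 11.5-fold higher (9.27 to 14.5). CL1670.Contig1, whose Nr name is alternative splicing defective protein 2, stood at 3.85 against 0.821 FPKM, 4.69-fold higher (3.45 to 6.49), and did not reach the 5 FPKM of the size rule. All 4 male-higher matches had female levels of 2.89 FPKM or less. Their Swiss-Prot scores ran from 203 to 281, against 60.5 to 267 in the 16 female-higher matches, so high and low scores to gld-1 occurred among the latter.

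The CL964 contigs together made up the largest share of the gld-1 signal in the female library, although single CL5901 contigs reached similar levels. The cluster had 10 contigs, 5 of them matched to gld-1. Those 5 were all higher in the female library, by 4.07-fold to 7.01-fold. CL964.Contig10 stood at 10.9 against 49.4 FPKM (4.53-fold, 3.99 to 5.15) and CL964.Contig8 at 6.81 against 29.7 FPKM (4.37-fold, 3.95 to 4.83). The interval of CL964.Contig2 lay above those of the other 4 matched contigs. CL964.Contig9, which has no gld-1 match, stood at 0.306 against 4.72 FPKM (15.4-fold, 8.43 to 31.5).

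The remaining 4 contigs of CL964, numbered 3 to 6, were outside the authors' table and carry no annotation here. CL964.Contig3 stood at 3.59 and 3.75 FPKM, a ratio of 1.04 (0.63 to 1.74), and CL964.Contig4 at 3.61 and 4.58 FPKM, a ratio of 1.27 (0.82 to 1.98). The intervals of all 4 included equal shares, and their directions were not distinguishable at this depth. The authors' counting may split fragments among contigs that share sequence, so single contigs are uncertain. Summed over the 10 contigs, the cluster held 1459 male and 7715 female fragments, a 4.91-fold female excess (4.64 to 5.19).

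The CL5901 contigs were all matched to gld-1 and all 8 were higher in the female library, with ratios from 2.40 to 19.4. The shortest contigs had the highest female levels and the largest ratios. CL5901.Contig8 is described above, and CL5901.Contig1, of 478 bases, stood at 6.04 against 49.6 FPKM (8.21-fold, 6.17 to 11.1). The other 6 contigs, of 1514 to 3411 bases, had female levels of 2.24 to 16.1 FPKM. Among these, CL5901.Contig5 at 0.496 against 3.48 FPKM had the largest ratio (7.02-fold, 4.79 to 10.6). CL5901.Contig7, with the highest Nr score of the 20 matches (417.9), stood at 2.31 against 5.54 FPKM, a 2.40-fold difference. The interval of CL5901.Contig8 did not overlap that of any other contig of the cluster. Summed over the cluster, 502 male and 2354 female fragments gave a 4.35-fold difference (3.95 to 4.80), well under the 19.4-fold of CL5901.Contig8 alone.

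**Figure D2:**
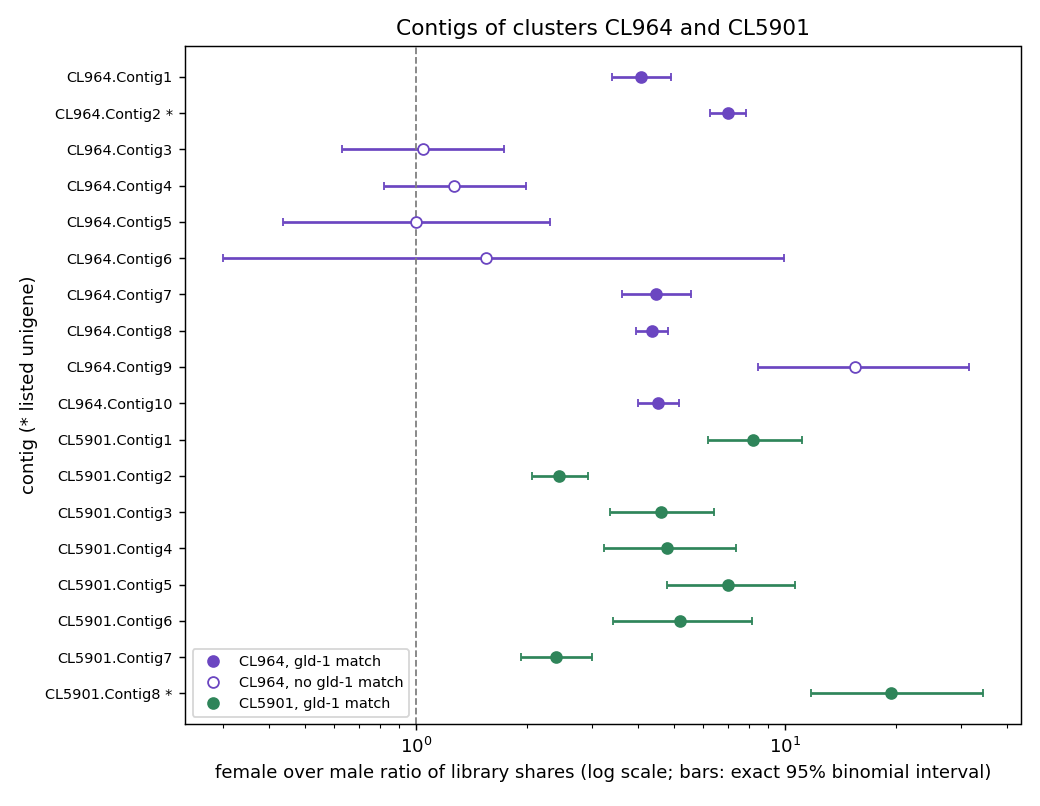
Female over male ratio of library shares on a log axis for each contig of clusters CL964 and CL5901, with exact 95% binomial intervals; filled points are gld-1 matches, open points are not, and the dashed line marks equal shares. The matched contigs lie right of the line, between 2.40 and 19.4, while CL964 contigs 3 to 6 have intervals that cross it.

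Outside the clusters, 3 single unigenes were higher in the female library. Unigene37229 stood at 0.551 against 9.96 FPKM, 18.1-fold higher (10.8 to 32.7). Unigene37230 had the same Nr and Swiss-Prot scores (163.7 and 60.5) and stood at 1.10 against 2.92 FPKM, 2.65-fold higher (1.79 to 4.02). The short Unigene23870, of 232 bases, stood at 6.81 against 28.8 FPKM, 4.22-fold higher (2.81 to 6.55).

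Summed over the 20 matches and scaled by library totals, the libraries held close totals of length-scaled signal made of different transcripts. These sums were not recomputed under the other scalings, and they add contigs that share sequence. The summed male level was 365 FPKM and the summed female level 334 FPKM. In the male, Unigene12894 alone gave 66.6% of it, the CL964 matches 9.15% and the CL5901 matches 5.16%. In the female, the CL964 matches gave 51.9%, the CL5901 matches 34.1% and Unigene12894 0.109%. In fragments the male library held more, 28662 against 10514, since Unigene12894 is long. Without it the counts were 3779 and 10474, a 2.57-fold difference in the female direction (2.48 to 2.67). In whole worms, fewer cells of a type and less RNA per cell cannot be told apart, and the sexes also differ in sperm and egg transcripts, as the marker levels show. The RefSeq annotation of the T. canis assembly Toxocara_canis_adult_r1.0 gives the symbol gld-1 to 10 loci. The unigenes carry no locus tag, so they were not assigned to these loci.

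**Figure D3:**
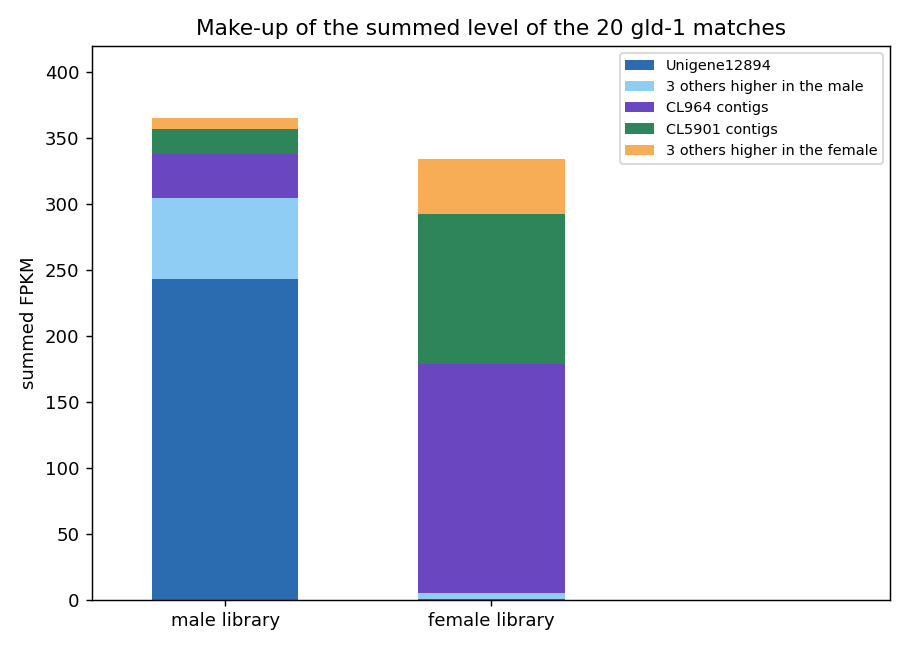
Summed FPKM (bars from 0) of the 20 gld-1 matches in the male and the female library, divided by transcript group. The bars reach 365 and 334 FPKM; Unigene12894 fills 66.6% of the male bar and 0.109% of the female bar, which CL964 and CL5901 contigs fill mostly.

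Other STAR and KH domain proteins also included transcripts far toward the male. A list of 20 such unigenes, gld-1 matches left out, had 11 with more in the male and 9 with more in the female. The search terms also took in the splicing factor match rsp-3 (CL5483.Contig1), whose RNA-binding domain is of another type, and a match to the FMR1-interacting protein gex-2 (CL367.Contig1); neither met the size rule. The size rule was met toward the male by 4 (background 15.9%) and toward the female by 0 (8.77%), and the median log2 value was -0.61. Unigene26618, matched to quaking-B, had 18088 male fragments, or 290 FPKM, and 0 female fragments. Set against a floor of 3 fragments in the female library, its male share was 6497-fold higher. The lower end of its exact interval was 5283-fold. Both vigilins, large proteins with many KH domains, were abundant in each sex. Unigene13634 had a male level of 114 and a female level of 370 FPKM (3.24-fold, 3.13 to 3.34) and Unigene1717 at 122 against 298 FPKM (2.44-fold, 2.38 to 2.51).

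Matches to Drosophila HOW went both ways, as the gld-1 matches did. CL5260.Contig2, the outermost list member toward the female, had 2 male and 106 female fragments, or 0.0699 against 3.44 FPKM, a ratio of 49.2 (13.3 to 411). Unigene11705 and Unigene28586, named after their values were seen, were higher in the male at 104 against 0.968 FPKM (108-fold, 76.1 to 158) and at 78.9 against 0.106 FPKM. That last female level comes from 2 fragments, which leaves the ratio of 741 wide (205 to 6128). CL1670.Contig2, from the cluster of the gld-1 match CL1670.Contig1 but with HOW as Swiss-Prot hit, had a male level of 2.60 and a female level of 0.666 FPKM (3.90-fold, 2.38 to 6.66). It moved the same way as its cluster mate. The splicing factor 1 match CL2936.Contig3 was low in both, at 0.759 and 2.09 FPKM. CL1670.Contig2 and CL2936.Contig3 were likewise named after their values were seen.

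**Figure D4:**
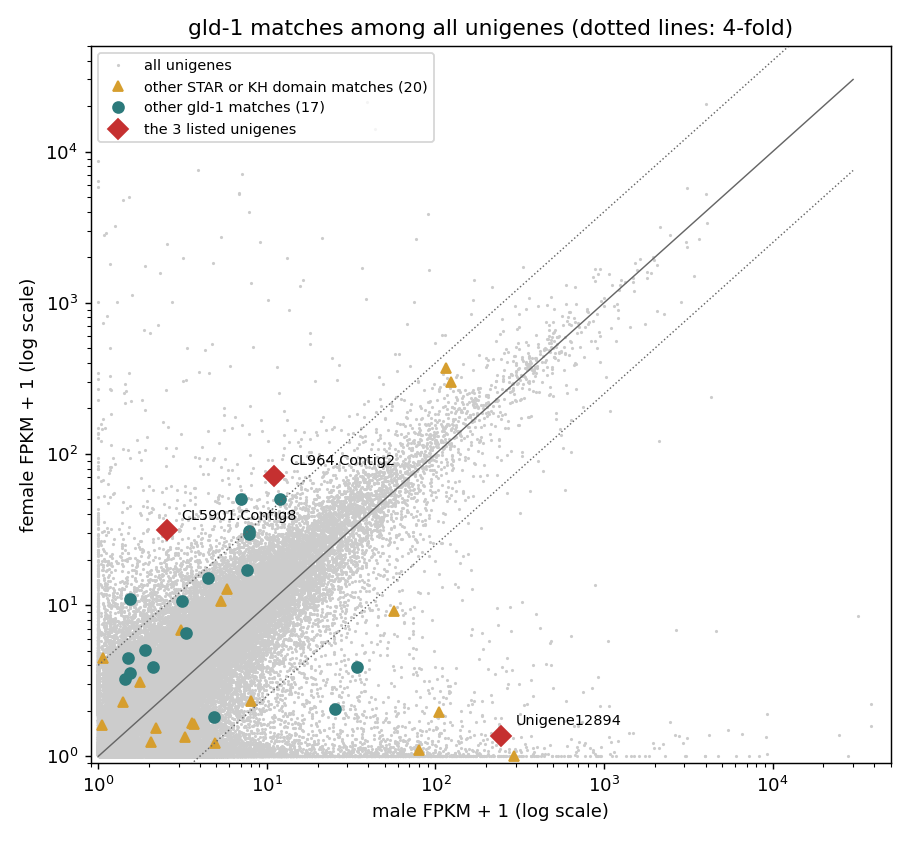
Female against male FPKM + 1, both on log axes, for every unigene (grey), the other STAR or KH domain matches (triangles), the other gld-1 matches (circles) and the 3 listed unigenes (diamonds); the solid line marks equal levels and dotted lines 4-fold differences. Unigene12894 lies at the lower right with the quaking-B match and 2 of the HOW matches (Unigene11705 and Unigene28586), and CL964.Contig2 and CL5901.Contig8 lie above the upper dotted line.

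Proteins that act with or beside GLD-1 in the C. elegans germline were present in both directions. In a list of 28 unigenes, 15 had more in the male and 13 more in the female, 2 met the size rule in each direction (backgrounds 15.9% and 8.77%), and the median log2 value was -0.36. With the libraries scaled by the median ratio instead, 4 met it toward the male and 0 toward the female. The list's search terms also took in Notch-like repeat proteins. Its most abundant member, Unigene1615, was such a notch-like match, with a male level of 193 and a female level of 84.0 FPKM (2.30-fold, 2.17 to 2.44). Unigenes matched to poly(A)-binding proteins, which coat the tails of messenger RNAs, numbered 8. Each had more in the male, and they summed to 274 FPKM there and 94.1 FPKM in the female. The background share with more in the female was 50.5%. Contigs of clusters CL1058 and CL30 are among the 8, so these are not 8 independent transcripts. The CL1058 contigs, named after their values were seen, had only 19 to 32 male fragments each. Of the 8, Unigene13602 stood at 67.7 against 21.1 FPKM (3.21-fold, 2.98 to 3.45), and CL30.Contig5 was 2.43-fold higher (2.04 to 2.91).

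The CPEB family, which binds cytoplasmic polyadenylation elements and regulates translation, divided by its best hit. All 5 unigenes matched to cpb-1, which spermatogenesis requires in C. elegans, were higher in the male library, with summed levels of 37.0 and 3.60 FPKM. CL2839.Contig1 had a male level of 27.5 and a female level of 3.31 FPKM, an 8.31-fold difference (6.98 to 9.95). The 4 unigenes matched to cpb-3 or to vertebrate cpeb1 were higher in the female, with summed levels of 10.7 and 31.2 FPKM. These groups were formed after their values were seen, and the background share with more in the female was 50.5%. Contigs of one cluster recur in each group, CL2839 among the cpb-1 matches and CL4009 among the others. The cpb-1 matches that did not meet the size rule had only 14 to 28 male fragments each. The division by best hit therefore rests on few independent transcripts, and nothing is read from its counts.

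The components named here of the germline particles that hold repressed messenger RNAs were higher in the female library. CL3429.Contig3, whose Nr description is the CAR-1 protein, stood at 9.14 against 42.8 FPKM, 4.68-fold higher (4.07 to 5.40). The helicase CGH-1 (CL1146.Contig1), named after its values were seen, stood at 14.0 against 63.0 FPKM, 4.50-fold higher (4.10 to 4.94). Both kept this direction but no longer met the size rule under the median-ratio scaling. Both ratios lie within the 4.07-fold to 7.01-fold range of the matched CL964 contigs. Upstream regulators, also named after their values were seen, had only low levels among the unigenes annotated here. Unigenes with similar levels in the sexes carry no annotation, and other contigs of these clusters were not summed. Scarcity of these regulators is therefore not shown. The 2 unigenes matched to FBF-1, the PUF protein that represses gld-1 in germline stem cells, had summed levels of 0.67 and 2.37 FPKM. GLD-2 (CL2793.Contig5), a cytoplasmic poly(A) polymerase, had 4 male and 24 female fragments, a ratio of 5.57 (1.91 to 22.1).

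Few targets or meiotic genes could be read in the authors' table. Of the target list, 1 unigene was matched, the homeobox gene pal-1 (CL4423.Contig2), a C. elegans target of GLD-1. Its male level was 2.82 FPKM and its female level 0.874 FPKM, a 3.23-fold difference (1.69 to 6.6). Of the meiosis list, 1 unigene was matched, the kinase chk-2 (Unigene16858), which starts chromosome pairing in C. elegans. Its male level was 2.97 FPKM and its female level 8.57 FPKM, a 2.88-fold difference (2.28 to 3.68). Neither passed the size rule.

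The unigenes whose levels were most like those of each listed unigene were found by distance in log2(FPKM + 1) over the 2 libraries. The search covered unigenes with an informative description and kept 1 per identical description. The 5 nearest to Unigene12894 lay within 0.21 log2 units. The nearest, Unigene10615, had a vertebrate collagen as Swiss-Prot hit and stood at 240 against 0.41 FPKM. Next came a match to Pygopus homolog 2 (Unigene17939) at 238 against 0.414 FPKM. Then followed 2 matches to catalytic subunits of protein phosphatase PP1, Unigene26678 at 225 against 0.382 FPKM and Unigene9820 at 248 against 0.505 FPKM. The last was a match to a probable serine/threonine protein kinase (Unigene2733) at 212 against 0.424 FPKM. Nearest to CL964.Contig2 was a Diminuto-like protein (Unigene8842) at 10.5 against 70.0 FPKM, and to CL5901.Contig8 the small GTPase match Rab-6A (Unigene2878) at 1.68 against 32.4 FPKM. Likeness over 2 libraries places a unigene by its level and its ratio, and many unrelated transcripts can share both.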

How the data were processed

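Poly-A RNA from the whole body of 1 adult male and 1 adult female worm was extracted with Trizol, fragmented and copied from random primers, per the labels' protocols. Which programs assembled, aligned and counted the reads is not given in the sources used here. Each library's deposited table holds the unigene length, a raw fragment count and an FPKM value, per the file headers. The deposited FPKM equal fragments over length and library total, to within 5.0e-05. A unigene missing from a library's table was taken as 0 fragments. The authors' deposited comparison of 21280 unigenes gives a log2 ratio, a p-value and the score of each best database hit, and its test is not named in the headers. Annotation comes from that table alone, in which every unigene has an absolute log2 ratio of at least 1.

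Fold differences are ratios of library shares with Clopper-Pearson intervals; levels have exact Poisson intervals. A count of 0 was set to 3 fragments per library. The size rule asks for 5 FPKM or more in whichever library is higher and, after a pseudocount of 1 FPKM is added, an absolute log2 ratio of 2 or more. Lists were found by search patterns in the Nr and Swiss-Prot descriptions without organism names. Named unigenes, singly or within a range, are the 3 members, all gld-1 matches and all contigs of CL964 and CL5901. Of the 5 nearest in level to each member, all are named for Unigene12894 and only the nearest for the others. They also include, per list, the 3 most abundant and the outermost ones. The sperm marker list is given as sums only, and the yolk and eggshell list as sums with its outermost members. Others are marked where named. The members and lists were chosen with earlier results of these data known. Alternatives changed the scaling, the pseudocount, the minimum level and the match. Intervals were computed with SciPy 1.17.1, tables handled with pandas 2.3.3 and NumPy 2.4.6 under Python 3.11.15, and plots drawn with matplotlib 3.10.9. The size rule was tested on simulated counts for 70267 unigenes, where it recovered 99.5% of 200 unigenes changed 8-fold. The changed unigenes had a pooled level of 5 FPKM or more, and the counts carried counting error only. The simulation therefore does not measure error from variation between worms or preparations.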

Additional observations from a re-analysis of the deposited data

How the results depend on the processing

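All 20 gld-1 matches kept their direction under both other scalings, 16 toward the female and 4 toward the male. This was fixed in advance, since the authors' table required an absolute log2 ratio of at least 1 and both shifts were smaller. Scaling by the median ratio of unigenes with at least 10 fragments in both libraries moved all ratios by 0.36 log2 units toward the male, and leaving the 100 most abundant unigenes of either library out of the totals moved them by 0.078 toward the female. Of 64 recomputed values, 54 stayed within 1.5 times of a count or within the interval of a ratio or median. Some could not move, since matching by Swiss-Prot alone returns the same 20 matches. No minimum and a minimum of 1 FPKM gave the same counts, so they are not separate checks. Under median-ratio scaling the log2 value of CL964.Contig2 was 2.35, and the partner list had 4 unigenes past the size rule in the male and 0 in the female direction. With a pseudocount of 0.1 FPKM, Unigene12894 was at -9.04, the median of the 20 matches was 2.08 and 8 of them passed the size rule toward the female. With 1 unigene per cluster name the median was 0.90 and 3 passed toward the female, a count that depends on the contig kept per cluster. With no minimum or a minimum of 1 FPKM, 1 STAR or KH domain unigene passed toward the female. A smaller pseudocount widens the ratios of low unigenes by construction, and a lower minimum can only add unigenes. The moves under median-ratio scaling follow from its shift of all ratios. Why the libraries differ by that shift was not tested. Matching by Nr alone gave no gld-1 match and no value. No paired analysis was possible because each sex has 1 library.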
